A study of Mus musculus with 42 samples.

Results

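Cytoplasmic RNA and total cellular RNA of unstressed C2C12 cells were compared in 8 of the 42 libraries of the series, taken as the untreated C2C12 libraries of each RNA fraction. C2C12 is a mouse myoblast line (strain C57BL/6 by its label, cells from ATCC) that divides in fetal bovine serum and fuses into myotubes in medium with 2% horse serum. Proliferating myoblasts (MB) and differentiated myotubes (MT) gave 2 cytoplasmic and 2 total libraries each. The cytoplasmic libraries were the untreated controls of an arsenite stress time course, collected at 0 h and 4 h, and the total libraries were replicates 2 and 3 of a separate comparison of proliferating with differentiated cells. None of the 8 cultures received arsenite. The time spent in differentiation medium and the lysis that separated C2C12 cytoplasm are not given in the sources used here. RNA fraction and experiment coincide, so that a difference between fractions and a difference between experiments cannot be told apart in any comparison below. The study's legends give 2 biological replicates for its comparison of proliferating with differentiated cells and do not name the libraries. Its sample list numbers the 2 libraries of each group as replicates without calling them biological. No source calls the 2 cytoplasmic libraries of a state biological replicates. Their spread may be technical, and p-values measure only the spread between the libraries used.

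Total RNA holds the transcripts of the nucleus and of the cytoplasm, whereas cytoplasmic RNA holds what has been exported. Transcripts that stay at chromatin, in paraspeckles or in the nuclear speckles, and mRNAs that keep a retained intron, are therefore under-represented in a cytoplasmic preparation, and mitochondrial RNA is recovered with the cytoplasm. All libraries were made by 3′READS, in which each read ends at a polyadenylation site (PAS), so a gene's level does not depend on its length and isoforms of 1 gene that end at different PASs are counted apart.

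The libraries held 1649925 and 1725942 PAS reads (MB cytoplasm, 0 h and 4 h), 3243633 and 4057012 (MB total), 2332277 and 2814299 (MT cytoplasm) and 3856482 and 4429624 (MT total). Levels are given as nRPM, a gene's PAS reads scaled to a common library size (RPM) after correction by median ratios, always in the order 0 h then 4 h for cytoplasm and replicate 2 then 3 for total RNA. PASs with fewer than 5 reads in a library were not in its file, and a gene with none is called not listed there. The labels name every C2C12 library a myoblast, but muscle genes separated the cultures as the titles do. Transcripts of *Myog*, the regulator that starts differentiation, were not listed in any MB library and stood at 650 and 489 nRPM in MT cytoplasm and at 1075 and 1187 nRPM in MT total RNA. *Ckm*, *Myh3* and *Tnnt3* were likewise listed in MT alone, and *Mylpf*, a fast myosin light chain, ranged from 1.85 to 7.23 nRPM in MB and from 10013 to 11305 nRPM in MT. The 6 myoblast genes (*Myf5*, *Mki67*, *Top2a*, *Ccnb1*, *Cdk1* and *Id3*) were higher in each MB library than in any MT library, with *Myf5*, which marks muscle progenitors, at 16.6 to 30.9 nRPM in MB and 9.24 to 15.0 nRPM in MT.

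Genes depleted from the cytoplasm and genes enriched in it were about equally many. Of 10663 genes tested, 1959 (18.4%) were lower and 1634 (15.3%) were higher in MB cytoplasm than in MB total RNA, and in MT 1920 (18%) were lower and 1595 (15%) were higher (edgeR quasi-likelihood test, adjusted p below 0.05). In both cell states 860 genes (8.07%) were lower and 831 (7.79%) were higher. The median log2 fold change (cytoplasmic over total) of the genes lower in both was -1.31 in MB and -1.23 in MT, that of the genes higher in both was 1.09 and 0.97, and over all genes tested it was -0.11 and -0.07. Of the MB-lower genes 43.9% were also lower in MT, and 44.8% of the MT-lower genes were lower in MB, while 49 genes were lower in MB and higher in MT and 41 the reverse. Of the 860 lower genes 672 were listed in all 8 libraries, and 145 were not listed in either MB cytoplasmic library, so that their depletion has no measured size. With library totals in place of median ratios the counts in both states were 1497 lower and 487 higher, and the median of all genes shifted by -0.36 in MB and by -0.14 in MT. Leaving out MB total replicate 2 or 3 left 486 or 472 lower and 532 or 521 higher genes, and leaving out MT total replicate 2 or 3 left 405 or 395 lower and 448 or 407 higher genes. Without those same MB libraries 1054 or 941 genes were lower and 970 or 875 higher in MB, and without those MT libraries 809 or 800 were lower and 757 or 708 higher in MT.

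**Figure D1:**
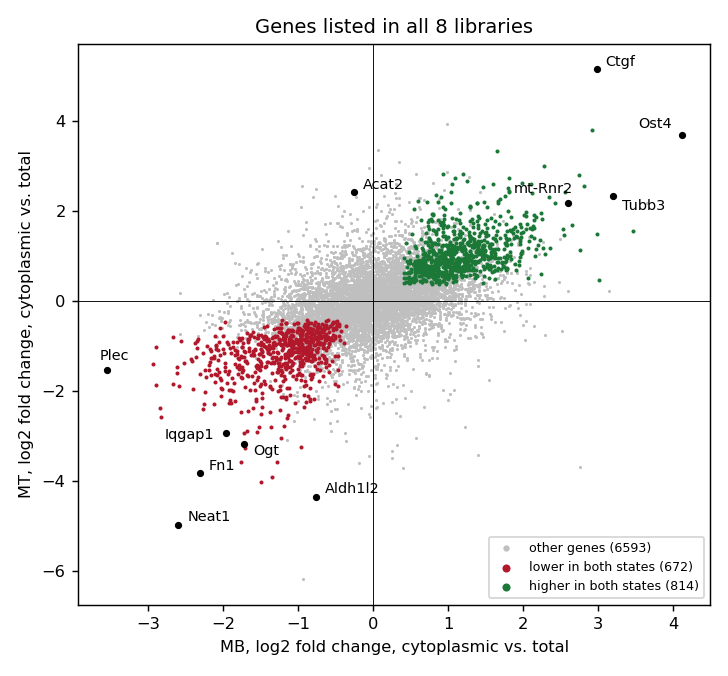
Log2 fold change of cytoplasmic over total RNA in MB (horizontal axis) and in MT (vertical axis) for the 8079 genes listed in all 8 libraries, 1 point per gene, with 672 genes lower (red) and 814 genes higher (green) in both states. The cloud runs from *Neat1*, *Fn1* and *Plec* at the lower left to *Ost4*, *Ctgf* and *Tubb3* at the upper right, while *Aldh1l2* and *Acat2* lie off the diagonal.

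Of the 7 nuclear long noncoding RNAs tested, 2 were lower in cytoplasm in both states, *Neat1* and *Xist*, and are given first. The highest log2 fold change in the list was 0.62 in MB, so the list as a whole does not check the fractions. *Neat1* is an RNA of paraspeckles, of which 3′READS counts only polyadenylated ends. It stood at 16.4 and 41.3 nRPM in MB cytoplasm against 189 and 162 nRPM in MB total RNA. In MT it stood at 4.63 and 37.7 nRPM in cytoplasm against 699 and 677 nRPM in total RNA. All 4 cytoplasmic libraries lay below all total libraries, and the log2 fold change was -2.60 ± 0.57 (SE, adjusted p = 0.0077) in MB and -4.96 ± 0.57 (adjusted p = 0.00035) in MT. The main *Neat1* PAS carried the canonical signal, in capitals in the 30 bases that end at it (chr19:5842307-5842336, minus strand, mm9, in an exon of the noncoding gene):

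Neat1 main PAS: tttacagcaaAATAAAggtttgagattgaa

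*Xist*, which coats the inactive X chromosome, behaved like *Neat1*. Its level was 28.9 and 3.22 nRPM in MB cytoplasm against 91.5 and 94.8 nRPM in MB total RNA, and it was not listed in the MT 0 h library, stood at 2.31 nRPM at 4 h and at 152 and 154 nRPM in MT total RNA. *Xist* was lower in both states (edgeR, adjusted p = 0.0064 in MB and 0.00026 in MT). Within a state the 0 h and 4 h libraries lay far apart for both RNAs. Unlike that of *Neat1*, the main *Xist* PAS lay in an annotated intron of the noncoding gene. It held neither AATAAA nor ATTAAA within 45 nt upstream.

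Other nuclear and snoRNA host RNAs were less uniform. *Malat1*, a nuclear speckle RNA that is abundant in most cells, reached no more than 25.9 nRPM in any library and passed the test in neither state. *Tug1* passed in neither state, and *Nespas* was listed in MB total RNA alone, at 3.16 and 2.95 nRPM. *Pvt1* fell in MT, from 71.8 and 61.3 nRPM in total RNA to 26.9 and 23.1 nRPM in cytoplasm (log2 fold change -1.42 ± 0.18, adjusted p = 0.00053), and stood at 42.7 and 40.6 against 52.7 and 48.9 nRPM in MB (adjusted p = 0.25). *Dleu2* was not listed in MT cytoplasm and was lower there (4.87 and 3.98 nRPM in MT total RNA). In all, 2 of the 7 tested members of this list (28.6%) were lower in both states and none were higher, against 8.07% and 7.79% of all genes. Of the 7 snoRNA host RNAs, none passed in both states. *Snhg12* (74.1 and 88.6 against 233 and 229 nRPM), *Snhg5* and *Snhg7* were lower in MT cytoplasm, *Snhg1* was higher in MB cytoplasm (408 and 443 against 212 and 220 nRPM), and *Gas5*, *Snhg3* and *Snhg4* passed in neither state. These host RNAs are spliced and end as polyadenylated RNAs after their snoRNAs are cut out of the introns.

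Mitochondrially encoded RNAs were enriched in cytoplasmic libraries. They took 6.53% ± 0.31 (SD, n = 2) of the reads of MB cytoplasm against 3.48% ± 0.20 of MB total RNA, and 6.95% ± 0.61 of MT cytoplasm against 4.53% ± 0.14 of MT total RNA. The 4 cytoplasmic libraries exceeded the 4 total libraries, and an exact permutation test of fraction within state gave p = 0.0556 (two-sided), the smallest that 36 arrangements allow. Of 9 RNAs tested 7 (77.8%) were higher in both states and none were lower, against 7.79% and 8.07% of all genes. The list median was 1.41 in MB and 0.89 in MT. *mt-Rnr2*, the large ribosomal RNA of mitochondria, led the list at 6361 and 5752 nRPM in MB cytoplasm against 929 and 1066 nRPM in total RNA, and at 5892 and 7841 against 1463 and 1581 nRPM in MT. Its log2 fold change was 2.60 ± 0.17 in MB and 2.17 ± 0.17 in MT (adjusted p = 9.2e-05 and 5.7e-05). *mt-Nd4* and *mt-Nd5*, which encode subunits of complex I, were higher in MB cytoplasm (log2 fold change 1.25 and 1.41) and did not pass in MT (0.26, adjusted p = 0.16, and 0.31, adjusted p = 0.14).

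Coding length ordered the whole set of genes, a relation that was looked for after the data had been seen. Genes whose longest annotated coding sequence was at most 500 nt had a median log2 fold change of 0.76 in MB and 0.53 in MT. The median then fell class by class, to -0.03 and 0.00 at 1000 to 1500 nt, -0.55 and -0.34 at 2000 to 3000 nt, and -1.12 and -0.72 beyond 5000 nt. Of the 465 genes in the longest class, 140 (30.1%) were lower in both states and 0 were higher, against 20 (2.13%) and 300 (32.0%) of the 938 genes in the shortest class. Over 10432 coding genes, Spearman's rho of coding length with the log2 fold change was -0.49 in MB and -0.35 in MT, as a description across genes that share the same 8 libraries. The full transcript (rho -0.42 and -0.29) and the number of exons (-0.33 and -0.28) followed the fold change less closely. Genes lower in both states had a median coding length of 2476.5 nt and 16 exons, genes higher in both had 604.5 nt and 5 exons, and all tested genes had 1389 nt and 9 exons.

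Above 1500 nt of coding length the median showed no steady order with exon number. Depletion in both states was there most frequent beyond 20 exons. In MT the median fell with exon number in the classes from 500 to 1500 nt. With up to 5, 6 to 10 and 11 to 20 exons it was 0.24, 0.22 and 0.03 at 500 to 1000 nt. At 1000 to 1500 nt it was 0.06, 0.02 and -0.07. The MB medians were 0.21, 0.30 and 0.18, and -0.13, -0.02 and 0.00. The shares lower in both states were 3.51%, 1.90% and 1.89%, and 2.97%, 5.58% and 6.12%. Beyond 20 exons these classes held 0 and 1 genes. Among genes with coding sequences of 1500 to 3000 nt, the median log2 fold change in MB was -0.52 with up to 5 exons (402 genes), -0.42 with 6 to 10 (592 genes), -0.40 with 11 to 20 (1851 genes) and -0.46 with more than 20 (411 genes), and in MT it was -0.21, -0.25, -0.21 and -0.44. The shares lower in both states were 9.45%, 7.26%, 9.67% and 13.1%. Beyond 3000 nt the medians in MB and MT were -0.95 and -0.42 with up to 5 exons (51 genes), -0.63 and -0.34 with 6 to 10 (88 genes), -0.82 and -0.46 with 11 to 20 (321 genes) and -0.91 and -0.60 with more than 20 exons (1024 genes), and 17.6%, 11.4%, 14.6% and 25.6% were lower in both states.

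The length order was present in every pairing of a cytoplasmic with a total library, where rho lay between -0.54 and -0.51 in MB and between -0.41 and -0.36 in MT over 7984 coding genes. Pairs of libraries of 1 fraction gave -0.10 (MB cytoplasm, 4 h over 0 h), 0.06 (MB total), 0.13 (MT cytoplasm) and 0.01 (MT total). The cytoplasmic libraries thus also differed between themselves with length, in opposite directions in MB and in MT. Restricting the classes to genes listed in all 8 libraries moved the medians of the shortest class to 0.85 and 0.59 and of the longest to -1.03 and -0.63.

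**Figure D2:**
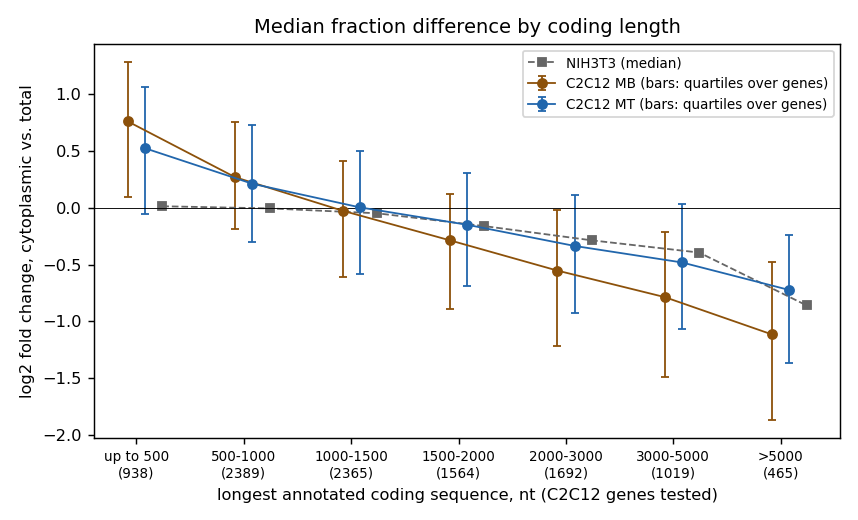
Median log2 fold change of cytoplasmic over total RNA (vertical axis) for genes in 7 classes of longest annotated coding sequence in nt (horizontal axis, number of C2C12 genes in parentheses), in MB (brown) and MT (blue) with bars from the lower to the upper quartile over genes, and in NIH3T3 (grey squares, medians). Medians fell from 0.76 to -1.12 in MB and from 0.53 to -0.72 in MT, and in NIH3T3 from 0.01 to -0.86.

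Depletion was common among the longest mRNAs. Of 34 genes with coding sequences over 10000 nt that were listed in all 8 libraries, 29 had fold changes below 0 in both states, 16 were lower in both by the test and 0 were higher. Over all genes tested 8.07% were lower and 7.79% higher in both states. *Plec*, which encodes the cytoskeletal linker plectin (coding sequence 14073 nt), stood at 42.1 and 37.4 nRPM in MB cytoplasm against 492 and 437 nRPM in MB total RNA. In MT it stood at 124 and 173 against 406 and 458 nRPM, and the log2 fold change was -3.55 ± 0.20 in MB and -1.54 ± 0.17 in MT. *Dync1h1*, the heavy chain of cytoplasmic dynein, fell from 338 and 359 to 116 and 50.3 nRPM in MB and from 348 and 328 to 142 and 176 nRPM in MT. *Macf1* and *Dst*, giant linkers of actin and microtubules, were lower in both states as well (log2 fold change -1.31 and -1.75, -2.11 and -1.80). *Ahnak*, with a coding sequence of 16968 nt, was an exception at 27.6 and 32.2 against 20.0 and 31.0 nRPM in MB and 63.0 and 62.0 against 61.8 and 69.7 nRPM in MT (log2 fold change 0.22 and -0.07, adjusted p = 0.54 and 0.81). These 5 were picked after their values were seen.

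Among the genes with the largest mean depletion, several were listed in total RNA and at most at traces in cytoplasm. By the ranking on the mean of both states these were *Vps18*, *6720401G13Rik*, *Gm16586*, *Dhrs9*, *Itpr1*, *Tnfrsf1b*, *Rreb1*, *Khnyn*, *Svil*, *Vps13c*, *Lrp1* and *Slc38a6*. *Vps18*, a subunit of the complexes that tether endosomes and lysosomes, was not listed in any cytoplasmic library and stood at 10.2 to 14.8 nRPM in the 4 total libraries. *Itpr1*, the receptor channel that releases calcium from the endoplasmic reticulum, was not listed in MB cytoplasm (17.1 and 19.6 nRPM in total RNA) and stood at 2.31 and 2.31 against 12.0 and 12.8 nRPM in MT. Fitted fold changes of such genes depend on the count assumed for an unlisted PAS and are not given.

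Ranked over the genes listed in all 8 libraries, a ranking added after the data were seen, the most depleted were *Neat1*, *Fn1*, *Paqr3*, *Pcdh15*, *Pck2*, *Abcc4*, *Ccnt2*, *Aldh1l2*, *Plec*, *2610203C20Rik*, *Iqgap1* and *Ogt*. *Iqgap1*, a scaffold of the cortical actin network, fell from 406 and 394 to 120 and 85.1 nRPM in MB (log2 fold change -1.97 ± 0.17, adjusted p = 0.00012) and from 395 and 413 to 50.0 and 55.5 nRPM in MT (-2.94 ± 0.17, adjusted p = 1.6e-05). *Ccnt2*, a cyclin of the elongation factor P-TEFb, fell from 24.5 and 22.5 to 3.29 and 3.22 nRPM in MB and from 37.2 and 40.9 to 6.94 and 8.09 nRPM in MT. Fractions did not overlap for either gene in either state, as the ranking required of each gene. Over all genes tested this was so for 47.8% (64.2% within MB and 72.1% within MT).

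At the other end, the 12 genes with the largest mean enrichment included *Rpl38*, *Ctgf*, *Ost4*, *Nipal1*, *Gm7204*, *Rpl12-ps1*, *Tubb3*, *Atp6v1f*, *Gm5093*, *Enho* and *Hdac8*. *Ost4*, whose product is the smallest subunit of oligosaccharyltransferase (coding sequence 111 nt), stood at 107 and 258 nRPM in MB cytoplasm against 7.38 and 13.3 nRPM in total RNA, and at 151 and 179 against 13.6 and 11.9 nRPM in MT. The log2 fold change was 4.11 ± 0.42 in MB and 3.70 ± 0.41 in MT (adjusted p = 0.00025 and 0.000303). *Tubb3*, a beta tubulin, rose from 23.2 and 19.8 to 154 and 238 nRPM in MB (3.19 ± 0.24) and from 14.1 and 10.8 to 59.7 and 66.6 nRPM in MT (2.35 ± 0.26). *Ctgf*, which is induced by serum and by growth factors, was also in this group and stood at 152 and 293 against 25.8 and 30.5 nRPM in MB and at 99.1 and 296 against 4.36 and 6.64 nRPM in MT. *Gm7204*, *Rpl12-ps1* and *Gm5093* resemble ribosomal or other short genes with near-identical copies, and their counts are uncertain because reads of copies may be divided among loci. Over genes listed in all 8 libraries the ranking added *Myl9*, *Rps15*, *mt-Rnr2* and *Cstf2t*, the last an intronless copy of another gene and uncertain for that reason. *Myl9*, the smooth-muscle type regulatory light chain, stood at 853 and 720 against 256 and 242 nRPM in MB and at 683 and 659 against 65.1 and 66.6 nRPM in MT.

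**Figure D3:**
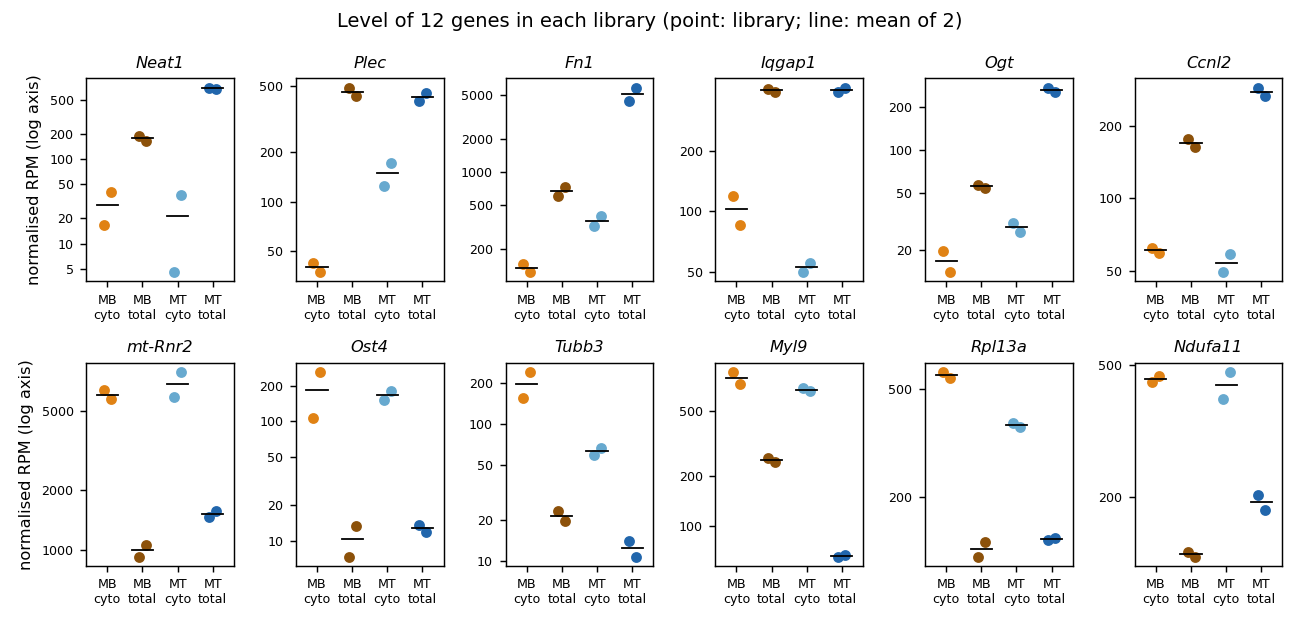
Level in nRPM (vertical axes, log scale, a separate range for each gene) of 6 genes lower (upper row) and 6 genes higher (lower row) in cytoplasm in both states, 1 point per library and a line at the mean of the 2 libraries of a group. In the 12 panels cytoplasmic and total libraries of a state do not overlap, for example *Iqgap1* at 50.0 to 120 nRPM in cytoplasm and 394 to 413 nRPM in total RNA. *Ccnl2*, *Rpl13a* and *Ndufa11* were taken from the gene lists. The others came from the ranking by mean fold change, which admitted only such genes. Over all genes tested 47.8% had no overlap in either state.

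Messages for extracellular matrix and secreted proteins, which are translated at the endoplasmic reticulum, had the lowest median of the protein-coding lists in MB. Of 42 tested, 17 (40.5%) were lower and 2 higher in both states (background 8.07% and 7.79%), with a list median of -1.19 in MB and -0.69 in MT, and a median coding length of 3514.5 nt. *Fn1*, which encodes fibronectin, fell from 615 and 740 to 149 and 125 nRPM in MB (log2 fold change -2.31 ± 0.20, adjusted p = 0.00012) and from 4443 and 5838 to 324 and 402 nRPM in MT (-3.82 ± 0.20, adjusted p = 9.3e-06). *Col5a1*, a chain of fibrillar collagen, fell from 528 and 459 to 128 and 114 nRPM in MB and from 2212 and 1947 to 571 and 670 nRPM in MT (log2 fold change -2.03 and -1.74). The list divided by length: 16 of 24 members with coding sequences over 3000 nt were lower in both states and 0 were higher (median -1.68 in MB, -1.19 in MT), while of the 18 shorter members 1 was lower and 2 were higher (median -0.12 and 0.28). The 2 higher members were *Ctgf* and *Timp1*, an inhibitor of matrix proteases (6390 and 6088 against 1986 and 2051 nRPM in MB, log2 fold change 1.63, and 3293 and 4758 against 2848 and 2893 nRPM in MT, 0.49 with adjusted p = 0.049). With unlisted PASs counted as 2 reads, the list median was -0.43 in MB and -0.55 in MT, 13 members were lower in both states, and the MB median of the list of detained introns was lower still (-0.46).

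Other messages translated at the endoplasmic reticulum were described by a separate list. The 34 tested members of the list of endoplasmic reticulum and secretory pathway proteins included 3 lower and 3 higher in both states (8.82% each, near the 8.07% and 7.79% of all genes) and had a median of 0.01 in MB and 0.28 in MT, with the MB median at -0.03 under TMM and -0.32 under library totals. *Hspa5*, the chaperone BiP, was lower (427 and 396 against 635 and 597 nRPM in MB, 568 and 661 against 1126 and 1057 nRPM in MT, log2 fold change -0.58 and -0.83). *Spcs3*, a subunit of the signal peptidase, was higher (97.3 and 102 against 55.9 and 46.1 nRPM in MB, 95.8 and 82.8 against 38.2 and 37.2 nRPM in MT, log2 fold change 0.97 and 1.24).

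Of 35 tested messages with detained introns or poison exons, most of them for splicing regulators, 12 (34.3%) were lower in both states and none were higher, against 8.07% and 7.79% of all genes. In single states 15 were lower and 2 higher in MB and 17 lower and 1 higher in MT. The list median was -0.50 in MB and -0.60 in MT, and the median coding length was 1470 nt, near the 1389 nt of all genes. The lower members were *Ogt*, *Ccnl2*, *Clk2*, *Mdm4*, *Srsf11*, *Nktr*, *Ddx5*, *Ccnl1*, *Prpf38b*, *Srsf2*, *Rbm39* and *Son*. *Ogt*, the enzyme that attaches O-linked N-acetylglucosamine and is controlled by a detained intron, fell from 57.2 and 54.3 to 19.7 and 14.2 nRPM in MB (-1.72 ± 0.20, adjusted p = 0.00045) and from 270 and 253 to 31.0 and 27.0 nRPM in MT (-3.18 ± 0.17, adjusted p = 9.3e-06). *Ccnl2*, a cyclin that takes part in splicing, fell from 177 and 163 to 62.4 and 59.3 nRPM in MB and from 288 and 266 to 49.5 and 58.5 nRPM in MT. *Clk1* passed in neither state (log2 fold change 0.44, adjusted p = 0.06, and -0.11, adjusted p = 0.61).

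Messages for the translation and respiration machinery are short. Of 68 ribosomal protein genes 28 (41.2%, against 7.79% of all genes) were higher and 1 was lower in both states, with medians of 0.96 and 0.69 and a median coding length of 474 nt. *Rpl13a* stood at 578 and 553 against 120 and 136 nRPM in MB (log2 fold change 2.14 ± 0.13) and at 376 and 362 against 138 and 141 nRPM in MT (1.40 ± 0.12), and *Rpl23* rose by 1.41 and 1.28. The lower member, *Rpl3*, was not listed in cytoplasm and stood at no more than 6.95 nRPM in total RNA. Ribosomal protein genes have many near-identical processed copies, so that their levels depend on how reads of copies were placed. Of 75 nuclear-encoded respiratory chain genes 35 (46.7%) were higher and 2 lower in both states (medians 0.69 and 0.59, median coding length 429 nt). *Ndufa11* and *Ndufa13*, subunits of complex I, stood at 442 and 461 against 137 and 133 nRPM and at 567 and 508 against 214 and 216 nRPM in MB. In MT *Ndufa11* stood at 394 and 474 against 203 and 183 nRPM (log2 fold change 1.17 ± 0.13). The medians of both lists were above 0 in both states under each scaling tried (the lowest, with library totals, were 0.60 and 0.55 for ribosomal proteins and 0.33 and 0.45 for the respiratory chain).

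Of 224 transcription factors with zinc fingers 19 were lower and 5 higher in both states (medians -0.56 in MB and -0.42 in MT, median coding length 1716 nt), and the share lower, 8.48%, was near the 8.07% of all genes. With unlisted PASs counted as 2 reads the medians were -0.13 and -0.21. Over the 127 members with more than 5 reads in every library they were -0.21 and -0.19. No lower member was among the 2 with the smallest p-values in both states, *Zfp771* (63.8 and 71.6 against 32.2 and 25.5 nRPM in MB, log2 fold change 1.24) and *Zfp560* (1.12 in MB, 1.20 in MT). The MB value of *Zfp560* was -6.60 (adjusted p = 0.095) with 3′UTR PASs alone. Immediate early and short-lived messages had 6 higher (18.8%, against 7.79% of all genes) and 1 lower of 32, and 1 higher and 1 lower with library totals. *Klf2*, a transcription factor, stood at 269 and 321 against 139 and 162 nRPM in MB and at 88.9 and 132 against 52.0 and 40.9 nRPM in MT (log2 fold change 0.97 and 1.25), and *Fosl2*, a partner of Jun in AP-1, fell (-0.97 and -1.24). Their list median was 0.31 and 0.39, and in MB it was -0.02 with library totals. Among 31 genes of the cell cycle and DNA replication, 3 were lower (*Cenpe*, *Rrm1* and *Tpx2*) and 2 higher (*Cdk1* and *Kif11*) in both states, or 9.68% and 6.45%, near the shares of all genes. *Cdk1*, the kinase that drives entry into mitosis, rose from 281 and 337 to 923 and 625 nRPM in MB and from 56.4 and 50.9 to 181 and 155 nRPM in MT, and *Rrm1*, a subunit of ribonucleotide reductase, fell from 344 and 354 to 156 and 171 nRPM in MB and from 91.8 and 73.9 to 44.9 and 46.2 nRPM in MT.

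Genes of the sarcomere and of contraction moved in both directions. Of 40 tested members of the list, 9 were lower and 11 higher in MT cytoplasm (median 0.10, and -0.03 with library totals), and 1 was lower and 3 higher in both states. Over all genes 18% were lower and 15% higher in MT and 8.07% and 7.79% in both states, against 2.5% and 7.5% of the list in both. The 3 higher members were 8 with unlisted PASs counted as 2 reads and 1 with library totals. Only 10 of the 40 had more than 5 reads in each of the 8 libraries. *Des*, the muscle intermediate filament protein, fell from 114 and 102 to 40.8 and 35.5 nRPM in MB and from 485 and 619 to 196 and 210 nRPM in MT (log2 fold change -1.50 and -1.44). *Tpm1*, tropomyosin, rose from 1311 and 1362 to 2828 and 2202 nRPM in MB and from 2023 and 1985 to 4504 and 4873 nRPM in MT (0.91 and 1.23).

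**Figure D4:**
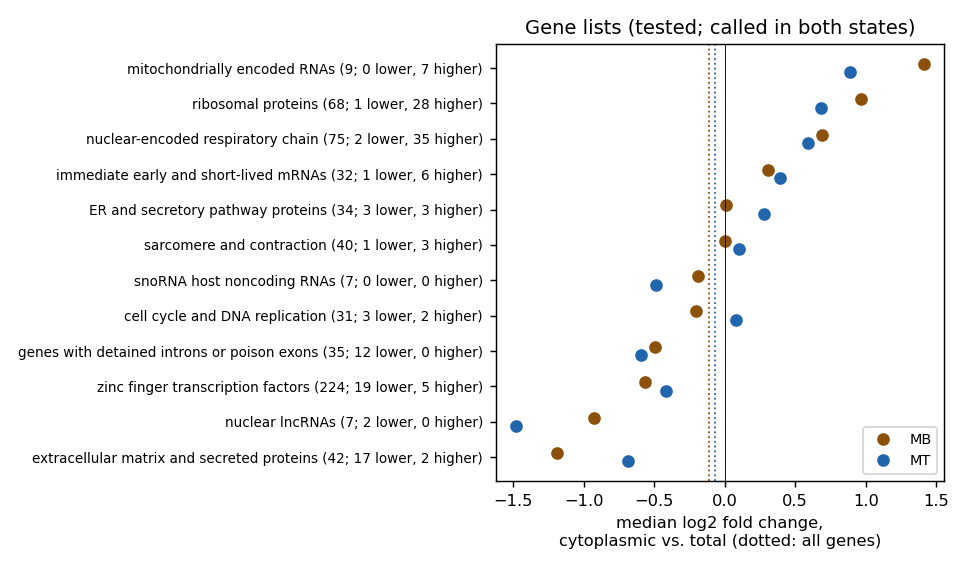
Median log2 fold change of cytoplasmic over total RNA (horizontal axis) of 12 gene lists (vertical axis, with the number tested and the numbers lower and higher in both states) in MB (brown) and MT (blue). Dotted lines mark the medians of all genes, -0.11 in MB and -0.07 in MT, and the lists run from extracellular matrix proteins at -1.19 in MB to mitochondrially encoded RNAs at 1.41.

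Fractions differed by cell state for 929 genes (8.71%) by the test of the interaction, 449 (4.21%) with a lower and 480 (4.5%) with a higher cytoplasmic share in MT. *Ddit3*, which encodes the stress-induced transcription factor CHOP, stood at 167 and 142 against 73.3 and 78.3 nRPM in MB (log2 fold change 1.02 ± 0.14) and at 216 and 204 against 868 and 879 nRPM in MT (-2.06 ± 0.13). *Aldh1l2*, a mitochondrial folate enzyme, stood at 38.9 and 42.4 nRPM in MT cytoplasm against 847 and 817 nRPM in MT total RNA, with 22.6 to 41.7 nRPM in the 4 MB libraries. *Atf3*, *Shmt2* and *Cth*, the last not listed in MT cytoplasm against 122 and 116 nRPM in MT total RNA, were of the same form, and in each of these 5 genes MT total RNA held the highest level. As background, the 5 genes are known to respond to the transcription factor ATF4, a trait seen after they had been ranked and not tested. Among genes with the reverse difference, *Acat2*, an enzyme of acetyl-CoA metabolism, stood at 162 and 140 against 198 and 163 nRPM in MB and at 172 and 160 against 32.6 and 29.2 nRPM in MT, and *Gnb4*, a G protein subunit, at 146 and 114 against 124 and 146 nRPM and at 66.2 and 93.6 against 10.3 and 10.2 nRPM. Cultures of the stress and of the differentiation experiment cannot be told apart from fractions in these genes either. Leaving out MB total replicate 2 or 3 left 113 or 104 genes, MT total replicate 2 or 3 left 90 or 138, MT cytoplasm 0 h or 4 h left 455 or 448, and leaving out MB cytoplasm 0 h gave 2178.

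The same contrast was available in NIH3T3, a mouse fibroblast line, from 2 cytoplasmic libraries that served as input of an immunoprecipitation and 3 total libraries. None of 9572 genes passed there (edgeR, with 323 lower and 176 higher at an unadjusted p below 0.05, and 20 lower and 4 higher with DESeq2), and the common dispersion was 0.41, against 0.018 in C2C12. The 781 genes that were lower in both C2C12 states had a median log2 fold change of -0.45 in NIH3T3, with 70.8% of them below 0, against -0.15 and 57.1% of the 9017 genes tested in both lines. The 795 genes higher in both C2C12 states had a median of 0.04, with 48.3% below 0. Coding length gave a rho of -0.18 over 8882 genes, and the depletion was seen in long classes (-0.86 beyond 5000 nt), whereas the shortest class stood at 0.01. Ribosomal protein and respiratory chain messages had medians of -0.19 and -0.35 in NIH3T3, and mitochondrially encoded RNAs had 0.69.

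Libraries of RNA labelled with 4-thiouridine (4sU) in untreated NIH3T3 cells gave a further property of the genes, the ratio of unlabelled flow-through (Ft) to newly made RNA, which is higher for stable messages. Its median log2 value was -0.39 for 798 genes lower in both C2C12 states, 0.62 for 799 genes higher in both and -0.17 for 9311 tested genes. The ratio also fell with coding length (rho -0.35 over 9162 genes). Among genes with coding sequences of 1000 to 1500 nt it was -0.21 (113 lower genes), 0.21 (135 higher genes) and -0.11 (2054 genes), a smaller spread than over all lengths. The study adjusted this ratio for the number of uridines in a transcript, which affects labelling and capture. No such adjustment was made here, and the part of uridine number in these values and in their relation to length was not tested.

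3′UTR isoforms ending at the distal PAS (dPAS) of a gene were slightly under-represented in cytoplasm. Each gene's 2 most abundant 3′UTR PASs were taken as proximal (pPAS) and distal, and the relative expression difference (RED) is the log2 ratio of dPAS to pPAS reads in cytoplasm minus that in total RNA. The median RED was -0.16 in MB (2943 genes) and -0.16 in MT (3553 genes), and 57.8% and 58.4% of values were below 0. Single pairings of a cytoplasmic with a total library gave medians of -0.19 to -0.16 in MB and -0.19 to -0.15 in MT, whereas pairs of libraries of 1 fraction gave 0.010 to 0.026. The median depended on the length between the PASs (the alternative UTR, aUTR): it was -0.03 in MB and -0.05 in MT for aUTRs of at most 250 nt. Above 250 nt it was level in MB, at -0.21, -0.23, -0.21 and -0.22 for aUTRs up to 500, 1000, 2000 and 10000 nt, while in MT it went from -0.08 to -0.16, -0.28 and -0.33. RED values in MB and MT had a Pearson's r of 0.43 across genes tested.

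Single genes passed the isoform test in both states in 24 of 2630 cases, 20 with a lower dPAS share (0.76%) and 4 with a higher dPAS share (0.152%). Within MB 55 were lower (2.09%) and 15 higher (0.57%), and within MT 59 lower (2.24%) and 20 higher (0.76%). At an unadjusted p below 0.05, 354 were lower and 179 higher in MB and 378 lower and 185 higher in MT. The PASs of 4 of the genes called are shown, with the signals AATAAA and ATTAAA in capitals in the 30 bases that end at the PAS or 1 or 2 bases before it (mm9, in the annotated 3′UTR or its downstream extension):

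Nmt1 pPAS (chr11:102927390-102927419, plus strand): tgaatAATAAAagtatatatattatatata
Nmt1 dPAS (chr11:102930197-102930226, plus strand): cttgtttctAATAAAggaagttcaacggtc
Hsbp1 pPAS (chr8:121872127-121872156, plus strand): ATTAAAcactaaaattttggcggtttctgg
Hsbp1 dPAS (chr8:121872800-121872829, plus strand): AATAAAaaccaagagtaATTAAAcattgaa
Ddx5 pPAS (chr11:106642860-106642889, minus strand): ccttccAATAAAagatatttgaagactgaa
Ddx5 dPAS (chr11:106641669-106641698, minus strand): cttaactAATAAAtgtgatttttctcccca
Gfpt1 pPAS (chr6:87042162-87042191, plus strand): cggaactgtgAATAAAttacccaaaacctt
Gfpt1 dPAS (chr6:87044177-87044206, plus strand): AATAAAcacttcataacttgtaaaaaaaaa

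Both sites of each of these genes held a signal, and the share of sites with AATAAA or ATTAAA within 45 nt upstream was 70.0% for pPASs and 80.7% for dPASs over all 2630 pairs. Among the 20 pairs with a lower dPAS share 16 pPASs and 17 dPASs held one, and their median aUTR was 1785.5 nt against 570.5 nt over all pairs. The bases shown for the dPAS of *Gfpt1* end in a run of genomic As.

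The dPAS isoform of *Nmt1*, an N-myristoyltransferase, was the most depleted. It made up 32.8% and 13.5% of pPAS and dPAS reads in MB cytoplasm against 76.3% and 82.9% in MB total RNA, and 44.9% and 40.5% against 80.1% and 84.5% in MT. RED was -3.92 in MB and -2.67 in MT (adjusted p = 0.0078 and 0.019). For *Hsbp1*, a small inhibitor of heat shock factor 1, the share was 2.96% and 3.38% against 25.0% and 33.6% in MB, and 10.8% and 9.95% against 23.8% and 29.2% in MT. *Mapk9*, which encodes the kinase JNK2, had shares of 34.2% and 22.1% against 69.1% and 69.1% in MB and 26.7% and 39.5% against 69.2% and 77.9% in MT. *Rpl14*, *Mmp14* and *Neo1* completed the 6 largest decreases, and the other 14 were *Tcf4*, *Rgmb*, *Lzic*, *Pcgf3*, *Mrpl19*, *Ankrd40*, *Agpat3*, *Commd6*, *Mfap3l*, *Rpl23*, *Srsf2*, *Arpp19*, *Bri3bp* and *Etf1*. The 2 fractions did not overlap in either state for the 6 largest, which were selected as the largest decreases called in both states. The share of all tested pairs without overlap was not counted.

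In 4 genes the distal isoform was the more cytoplasmic one. *Ddx5*, which encodes an RNA helicase and is also in the list of genes with detained introns, had a dPAS share of 84.5% and 82.0% against 56.9% and 53.8% in MB, and of 87.6% and 86.7% against 66.4% and 63.2% in MT (RED 2.01 and 1.87, adjusted p = 0.0064 and 0.0048). Reads at its pPAS numbered 83 and 103 in MB cytoplasm and 888 and 1186 in MB total RNA, and reads at its dPAS numbered 451 and 469 against 1172 and 1383. *Gfpt1*, the first enzyme of the hexosamine pathway, had 40.0% and 21.6% against 6.14% and 8.00% in MB, and 62.6% and 50.3% against 9.60% and 10.4% in MT. *Narfl* and *Acta2*, a smooth muscle actin, were the other two. Of the RT-qPCR list, *Timp2*, *Dnajb1*, *Hspa4l*, *Rpl22* and *Fam49b* had a tested pair and did not pass. For *Timp2* the dPAS share was 79.0% and 61.7% against 76.9% and 81.3% in MB and 81.8% and 80.3% against 87.1% and 85.1% in MT (RED -0.82 and -0.54, adjusted p = 0.33 and 0.40). The isoform calls depended on 6 of the libraries. Leaving out MB total replicate 2 or 3, MT cytoplasm 0 h or 4 h, or MT total replicate 2 or 3 left 0 lower genes and at most 1 higher gene, while leaving out MB cytoplasm 0 h or 4 h gave 70 or 59 lower and 20 or 15 higher genes, among them 19 or 17 of the 20 lower and all 4 higher ones. Thinned to equal depth, 3 lower and 2 higher genes were called.

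**Figure D5:**
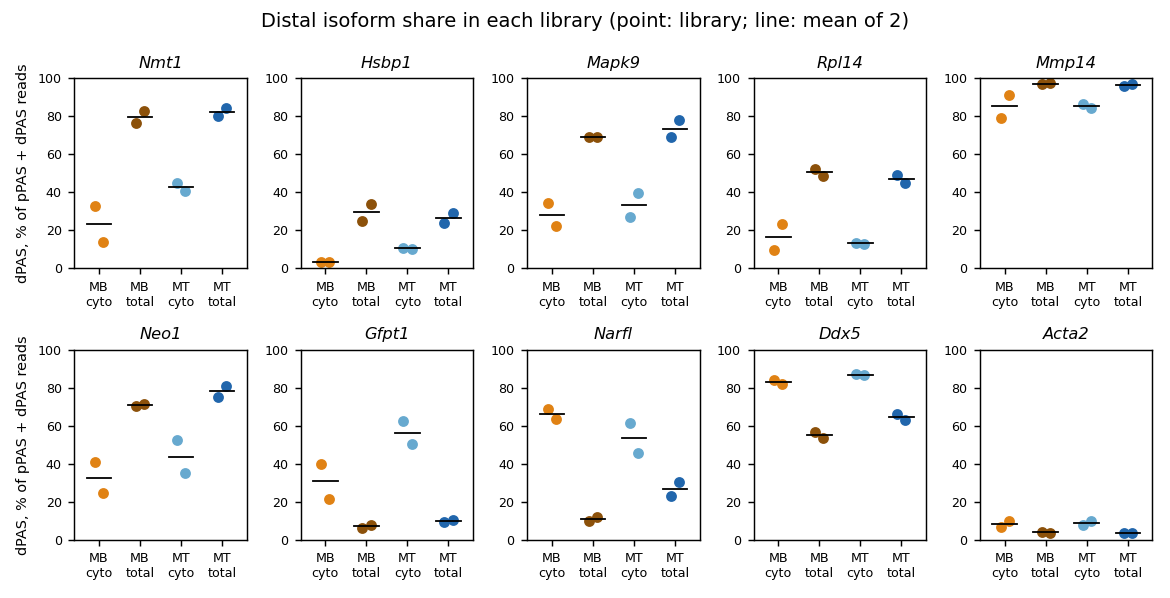
Reads at the dPAS as a percentage of pPAS and dPAS reads (vertical axes, 0 to 100%) in each library for the 6 genes with the largest decrease and the 4 genes with an increase in cytoplasm in both states, 1 point per library and a line at the mean of the 2 libraries of a group. *Nmt1* ran from 13.5% to 44.9% in cytoplasm and from 76.3% to 84.5% in total RNA, and *Ddx5* from 82.0% to 87.6% and from 53.8% to 66.4%.

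Transcripts that end in introns took a small part of all libraries. Intronic PASs held 1.81% ± 0.066 (SD, n = 2) of reads in MB cytoplasm against 2.09% ± 0.059 in MB total RNA, and 1.68% ± 0.051 against 1.75% ± 0.0055 in MT (exact permutation test within state, two-sided, p = 0.0556, the smallest possible). 3′UTR PASs held 81.6% against 85.4% in MB and 80.4% against 83.9% in MT, at the same p. These shares are of all reads, of which mitochondrial reads took 6.53% against 3.48% in MB and 6.95% against 4.53% in MT. Shares without mitochondrial reads were not computed, so the decrease in MT may lie in the denominator. Set against 3′UTR reads of the same gene, higher intronic shares in cytoplasm were the more frequent. Of 276 genes with enough reads at both kinds of site, none had a lower and 3 had a higher (1.09%) intronic share in cytoplasm in both states (edgeR, with 7 lower and 30 higher in MB and 11 lower and 42 higher in MT at an unadjusted p below 0.05). Within MB 0 were lower and 8 higher (2.9%), and within MT 1 was lower (0.362%) and 4 higher (1.45%). The 3 genes were *Atf6*, *Slc35b2* and *Vmp1*. *Vmp1*, a membrane protein of autophagy, ended in an intron in 77.4% and 73.7% of its reads in MB cytoplasm against 44.8% and 47.2% in total RNA, and in 75.4% and 69.7% against 40.4% and 41.7% in MT. Its main intronic and 3′UTR sites are shown with the signal in capitals, which was not found at the 3′UTR site (mm9, minus strand). The bases shown for the intronic site end in a run of genomic As:

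Vmp1 intronic PAS (chr11:86443898-86443927): ccAATAAAgactgtttgcctcaaaaaaaaa
Vmp1 3′UTR PAS (chr11:86398195-86398224): tttataaagacatctttgatcattccgaaa

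*Atf6*, a stress sensor of the endoplasmic reticulum, had an intronic share of 64.9% and 83.7% against 12.9% and 23.5% in MB and of 64.7% and 51.9% against 11.4% and 9.81% in MT. Without sites followed by A-rich genomic sequence *Vmp1* remained, *Slc35b2* had an adjusted p of 0.051 in MB, and *Atf6* no longer had enough intronic reads to be tested. That filter read only the bases after a site, so it did not test the As that end the bases shown for *Vmp1*. Leaving out any library other than those of MB cytoplasm left 0 genes, and leaving out MB cytoplasm 0 h or 4 h gave 12 or 10.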

How the data were processed

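The authors made 3′READS libraries, used cutadapt for trimming and Bowtie2 (local alignment) for mapping to mm9, took reads with nongenomic Ts as PAS reads and joined PASs within 24 nt. The deposited values are raw counts of PAS reads per cluster and library, without clusters under 5 reads. Files of libraries other than the 8 of C2C12 and 9 of untreated NIH3T3 cells (input, total, 4sU and Ft) were not used. Members and gene lists were chosen with earlier results of these data known.

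PASs were joined across libraries and assigned to GENCODE M1 genes on NCBIM37 (the mm9 assembly), with 3′UTRs extended by up to 4 kb, and 46544 of 56945 clusters were assigned. A gene's counts were summed over its sense PASs, and unlisted clusters counted as 0. Genes with at least 10 reads in at least 2 of the 8 libraries were tested with edgeR 4.0.16 (R 4.3.3) by the quasi-likelihood test in 1 fit of 4 groups, with median ratio factors and Benjamini-Hochberg adjustment over all genes. Such factors ran from 0.90 to 1.17. Isoform pairs at most 10 kb apart, and intronic against 3′UTR reads, were tested as an isoform by fraction term with library as a block, given more than 5 reads of each in each group. Standard errors are those of the fitted log2 fold change. NIH3T3 was fitted apart. Figures were drawn with matplotlib 3.10.9. Coding length is the longest coding sequence annotated for a symbol, which left out 231 genes.

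Replicate libraries of a group had Pearson's r of log2 counts from 0.93 (MB cytoplasm) to 0.99 (MT total) and differed by 2.47 to 8.96 times their sampling variance, and no pair agreed within sampling noise. In simulated counts, a log2 change of 1 was recovered for 61% of changed genes in MB and 73% in MT, and in isoform pairs for 21% and 23%. The simulation gave every gene the same dispersion of 0.02 and did not drop low counts as the deposited files do. Gene changes were placed only in genes above a minimum mean count. Recovery in the real libraries was not tested. Genes named were the tested members of the lncRNA, snoRNA host and mitochondrial lists, the 12 genes with the lowest and the 12 with the highest mean log2 fold change among those called in both states with separate libraries and at least 10 nRPM in the higher fraction, the 6 isoform pairs per direction and 3 intronic genes ranked likewise, 5 interaction genes per direction, 2 genes per other list, markers and RT-qPCR genes. Some genes that this rule names are not reported here.

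Alternatives were TMM factors, library totals, DESeq2 1.42.0, other filters, unlisted clusters counted as 2 reads, 3′UTR PASs alone, a 1 kb extension, separate fits of MB and MT, Fisher's exact test for isoforms, and each library left out. Thinning all libraries to 1649925 reads was added after the data were seen. Total libraries of MB and MT with the same number, and cytoplasmic libraries of the same time (all carry number 1), did not deviate together (r of deviations 0.10 in cytoplasm and 0.05 in total RNA).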

Additional observations from a re-analysis of the deposited data

Results flagged for a closer look

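Fraction differences that themselves differed between the cell states (edgeR interaction test, adjusted p below 0.05, which 8.71% of all genes passed) are given as the MT log2 fold change minus the MB one, for the genes named in the text that had reads in all 4 groups. Among noncoding and mitochondrial RNAs the difference was -4.34 for *Xist*, -1.13 for *Pvt1*, -1.31 for *Snhg12*, -0.99 for *mt-Nd4*, -1.10 for *mt-Nd5* and -1.06 for *mt-Co1*. Among depleted messages *Plec* was more depleted in MB (2.01), whereas *Fn1* (-1.51), *Iqgap1* (-0.97), *Ogt* (-1.46), *Ccnl2* (-0.87), *Paqr3* (-2.53), *Pck2* (-1.80), *Abcc4* (-2.55) and *2610203C20Rik* (-1.54) were more depleted in MT. Among enriched messages *Myl9* (1.69) and *Dnajb1* (1.17) were more enriched in MT, and *Rpl13a* (-0.74) in MB. The genes ranked by this test itself were *Aldh1l2* (-3.59), *Ddit3* (-3.08), *Atf3* (-6.45) and *Shmt2* (-2.44), and in the other direction *Acat2* (2.68), *Ly6e* (2.01), *Tmem119* (2.66), *Gnb4* (3.02) and *Megf10* (1.75). *Ly6e* and *Megf10* passed in MB alone (log2 fold change -1.68 and -1.99) and *Gnb4* in MT alone (2.97). Cell state is compared across 4 groups that come from separate experiments by fraction, and the part of the cultures in these values was not tested.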

How the results depend on the processing

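With library totals 3422 genes were lower and 897 higher in MB, and 1497 lower and 487 higher in both states. DESeq2 called 571 lower in both states, and 20 lower and 4 higher genes in NIH3T3. At equal depth (added after the data were seen) 558 genes were lower in both states, of which 527 were among the 860, 567 genes differed between states, 3 isoform pairs were lower and 2 higher, and the median RED in MB was -0.18. Isoform calls were 65 lower and 23 higher with more than 20 reads of each isoform and 294 and 113 by Fisher's exact test with a change over 5 percentage points. The most proximal and distal PASs gave median RED values of -0.19 in MB and -0.18 in MT. Without A-rich sites 1 gene had a higher intronic share in both states, and with signal-bearing sites alone 5 had a higher and 1 a lower share. The causes of these shifts were not tested. Leaving out single libraries gave 395 to 1032 genes lower and 407 to 991 higher in both states, 941 to 2234 lower and 875 to 1798 higher in MB, 800 to 2582 lower and 708 to 2168 higher in MT, and 90 to 2178 differing between states. It gave 0 to 70 isoform pairs lower and 0 to 20 higher, 0 to 1 genes with a lower and 0 to 12 with a higher intronic share, median RED values of -0.17 to -0.16 in MB and -0.18 to -0.14 in MT, differences in the intronic share of reads of -0.33 to -0.24 percentage points in MB and -0.11 to -0.041 in MT, and 0 lower and 0 higher genes in NIH3T3. A group left with 1 library was taken to vary like the other groups. The sign was reversed for 2 values, both in MB: *Zfp560* (-6.60) with 3′UTR PASs alone and *Purb* (-0.32) with the shorter extension. Of 4238 values of single genes under these alternatives, 3909 kept their direction and their side of the threshold, 256 lost and 71 gained the call, the last including *Myog*, *Ckm* and *Myh3* in MB, where all clusters were unlisted and were counted as 2 reads in libraries of unequal depth. No paired analysis was possible for MB and MT alone because the cytoplasmic libraries both carry number 1 in their titles and the total libraries 2 and 3. With a replicate block across MB and MT, by number for total and by time for cytoplasmic libraries, 656 genes differed between states, and the 10 ranked genes kept their calls; in NIH3T3 the block gave 0 lower and 0 higher genes.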
